A study of Mus musculus with 8 samples.

Results

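The Cyp2d genes of the mouse encode cytochrome P450 enzymes, haem proteins of the endoplasmic reticulum that oxidise drugs, steroids and other lipophilic compounds. They are the mouse relatives of human CYP2D6, a liver enzyme known for the metabolism of many prescribed drugs. The genes Cyp2d9, Cyp2d10, Cyp2d11, Cyp2d12, Cyp2d13, Cyp2d22, Cyp2d26, Cyp2d34 and Cyp2d40 were taken by symbol from a table of 24411 genes, 9 genes in all. They were taken by their names, though with earlier results of these data known. Each P450 of this kind draws its electrons from NADPH through the reductase encoded by Por, in part by way of cytochrome b5, and transcription of CYP2D6 in human liver cells is known to depend on the nuclear receptor HNF4A.

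RNA-seq libraries were made from the hepatocytes of wild-type mice (WT, 4 libraries) and of mice whose Taf2 gene was knocked out conditionally in hepatocytes alone (Taf2 cKO, 4 libraries). All cells were harvested 2 days after plating, so both genotypes are cultured cells and neither is liver tissue. The Taf2 protein belongs to TFIID, which recognises core promoter DNA ahead of RNA polymerase II. The sources used here name no Cre driver, deleted exon, strain, age or sex. They do not state that each library came from a separate animal or culture either, so the p-values measure only the spread between these libraries.

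Levels are counts-per-million (CPM) on library sizes scaled by TMM. Fold changes are log2 values from edgeR's quasi-likelihood test, each with its standard error (SE). Library totals ran from 18947060 to 23933585 counts. Taf2 itself stood at 44.0 ± 2.05 CPM in WT and 13.9 ± 1.26 CPM in Taf2 cKO (SD, n = 4 each). The difference was -1.66 on the log2 scale (SE 0.061, adjusted p = 9.03e-15 by edgeR), and every library matched its label. Among 12122 genes tested, 30.2% were higher and 31.2% were lower in the knockout at an edgeR adjusted p under 0.05, 61.4% in all, and the median log2 fold change over all of them was -0.0035. Hepatocyte markers were abundant in both genotypes. The serum albumin gene Alb alone stood at 38035 CPM in WT and 55183 CPM in Taf2 cKO.

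All the Cyp2d genes lie together on chromosome 15 of build GRCm38 (mm10), between positions 82370527 and 82794452, a span of 424 kb that also holds many pseudogene copies. RefSeq lists 19 Cyp2d entries on this assembly, 11 of them pseudogenes. Cyp2d13 is itself annotated as a transcribed pseudogene, and the other 8 genes of the set as protein coding. Taf2 is on the same chromosome, 27.3 Mb away. The promoters show how alike the copies are. RefSeq windows from 250 bases before to 50 bases after the transcription start (GRCm38.p6) were found for 5 of the 9 genes, Cyp2d9, Cyp2d10, Cyp2d11, Cyp2d26 and Cyp2d40, and 60 bases of each are shown because they hold the letters these genes share. Capitals mark CAGAGNACAAAGNGCA, the longest stretch (16 bases) that the 5 windows share with at most 2 differing positions, and the letters TATAA of a TATA box, the core promoter element contacted by TBP, another TFIID subunit. Inside the longer stretch lie a pair of hexamers in direct repeat with a single base between them, the layout of sites that HNF4A and related nuclear receptors bind.
Cyp2d9, chr15:82452311-82452370, plus strand: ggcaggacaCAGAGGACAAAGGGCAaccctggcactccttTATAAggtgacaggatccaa
Cyp2d10, chr15:82407204-82407263, minus strand: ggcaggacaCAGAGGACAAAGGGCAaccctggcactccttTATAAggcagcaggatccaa
Cyp2d40, chr15:82764192-82764251, minus strand: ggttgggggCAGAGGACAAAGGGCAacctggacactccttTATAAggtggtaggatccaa
Cyp2d11, chr15:82394044-82394103, minus strand: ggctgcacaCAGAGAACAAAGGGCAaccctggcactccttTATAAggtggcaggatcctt
Cyp2d26, chr15:82794260-82794319, minus strand: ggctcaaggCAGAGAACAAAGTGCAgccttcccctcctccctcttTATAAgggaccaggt
Over these 60 bases, compared position by position with no gaps, Cyp2d10 had the same letter as Cyp2d9 at 57 positions, Cyp2d11 at 54, Cyp2d40 at 50 and Cyp2d26 at 26. In Cyp2d26 the TATAA lies further from the shared stretch than in the others, so its later letters were compared out of step.

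The shared stretch began 57 bases before the start in Cyp2d9, 60 in Cyp2d10, 65 in Cyp2d26, 72 in Cyp2d11 and 120 in Cyp2d40. The TATAA letters printed above began 26, 29, 29, 41 and 89 bases before it in the same order. The version CAGAGGACAAAGGGCA of Cyp2d9, Cyp2d10 and Cyp2d40 was found in 3 of 32851 RefSeq promoter windows of this length, searched on both strands, and those 3 belong to the genes just named. CAGAGNACAAAGNGCA was in 6 windows (0.0183%), the 5 of the Cyp2d genes it was read from and 1 other. TATAA, on either strand anywhere in the window, was in 24.9% of windows and so is common by itself. With its first letter 40 to 20 bases before the start on the gene's strand it was in 3.52% of windows, among them those of Cyp2d9, Cyp2d10 and Cyp2d26. Both patterns were chosen by reading these promoters, and a match describes letters and not a bound site.

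Of the 9 genes, 6 passed the filter on low counts, each with at least 51 counts in every library of both genotypes, and all 6 were higher in Taf2 cKO. The background for that count is the 30.2% of all tested genes that were higher. Every knockout library also stood above every WT library for each of the 6, against 26.9% of tested genes for which this held and 54.7% whose genotypes did not overlap in either direction. The median log2 fold change of the 6 was 0.58, within a range from 0.15 to 0.92. The other 3 genes, Cyp2d11, Cyp2d12 and Cyp2d34, had at most 8 counts in any library and are described further below.

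**Figure D1:**
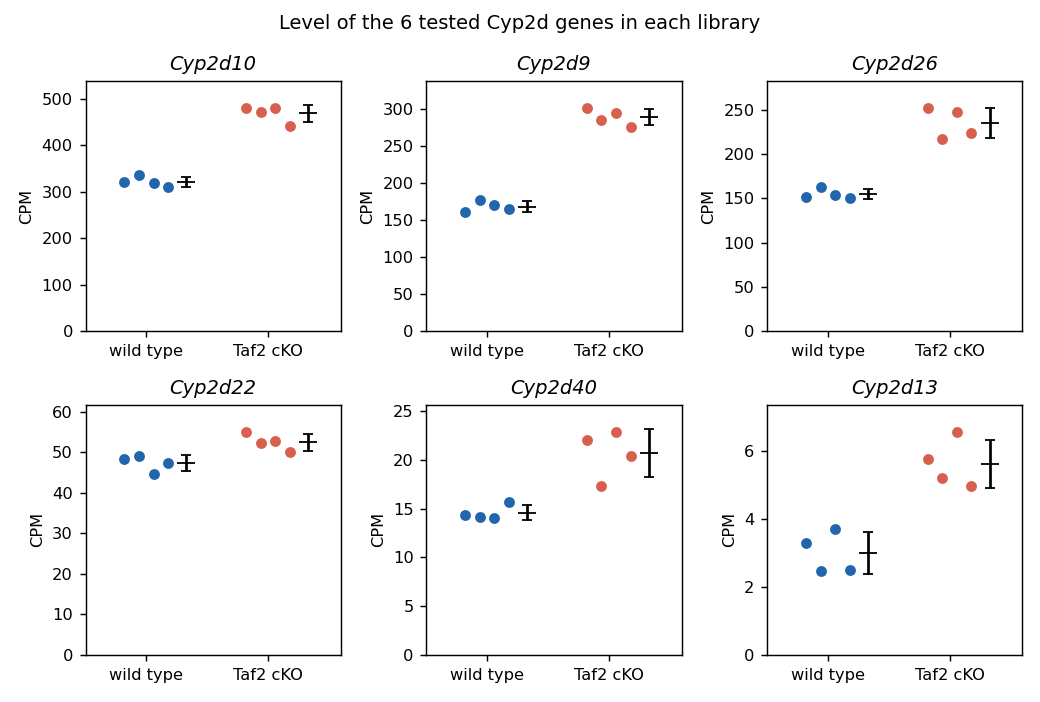
Level of each tested Cyp2d gene in CPM (vertical axes from 0), with 1 point for each of the 4 wild-type (blue) and 4 Taf2 cKO (red) libraries and the mean ± SD in black. In all 6 panels the knockout points lie above the wild-type points, by the least in Cyp2d22, where they run from 50 to 55.1 against 44.7 to 49.0 CPM.

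Cyp2d10 was the most abundant member. Its WT libraries 1 to 4 held 322, 336, 318 and 309 CPM and its Taf2 cKO libraries 481, 472, 481 and 441 CPM. The knockout libraries lay close together and well above the wild type, and the lowest of them exceeded the highest WT library by a wide margin. The log2 fold change was 0.54 (SE 0.038; edgeR adjusted p = 1.44e-10), a 1.46-fold rise.

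Cyp2d9, which encodes a steroid hydroxylase of testosterone known for its male-biased expression in mouse liver, stood at 160, 177, 171 and 165 CPM in WT and at 302, 286, 295 and 275 CPM in Taf2 cKO. As a fold change its genotypes were the furthest apart among the members above 10 CPM, while Cyp2d10 had the larger difference in CPM. It rose 1.72-fold (log2 fold change 0.78, SE 0.040; edgeR adjusted p = 1.12e-12), and 1090 of the 12122 tested genes had a larger log2 fold change.

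Cyp2d26 had 152, 163, 154 and 150 CPM in WT and 252, 217, 247 and 224 CPM in Taf2 cKO. Its knockout libraries were more spread than those of Cyp2d9, with replicates 1 and 3 above 2 and 4. The log2 fold change was 0.61 (SE 0.046; edgeR adjusted p = 5.78e-10).

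Cyp2d22, a member often discussed as the nearest mouse counterpart of CYP2D6, moved least. Its levels were 48.4, 49.0, 44.7 and 47.4 CPM in WT and 55.1, 52.2, 52.7 and 50 CPM in Taf2 cKO. The genotypes did not overlap, but the lowest knockout library exceeded the highest WT library by less than the spread within either genotype. The log2 fold change was 0.15 (SE 0.043; edgeR adjusted p = 0.00522), and 31.4% of all tested genes had a log2 fold change at least as high.

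Cyp2d40 stood at 14.4, 14.2, 14 and 15.7 CPM in WT and at 22.0, 17.3, 22.9 and 20.4 CPM in Taf2 cKO. Knockout replicate 2 was the lowest of its group and the nearest to the wild type. The log2 fold change was 0.51 (SE 0.078; edgeR adjusted p = 1.15e-05).

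The pseudogene Cyp2d13 was the least abundant of the tested members and had their highest fold change. It stood at 3.30, 2.48, 3.71 and 2.48 CPM in WT and at 5.76, 5.20, 6.57 and 4.97 CPM in Taf2 cKO, on 51 to 76 and 104 to 152 counts per library. Replicates varied more than in the abundant members, with a coefficient of variation of 20.5% in WT and 12.7% in Taf2 cKO against 3.4% and 4.03% for Cyp2d10. The log2 fold change was 0.92 (SE 0.14; edgeR adjusted p = 7.53e-06).

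Counting was limited for the remaining members. Cyp2d34 had 0 counts in all 8 libraries, which at 3 counts allows a level of up to 0.127 to 0.157 CPM per library. Cyp2d11 had 3, 2, 2 and 7 counts in the WT libraries and 7, 2, 5 and 8 in the Taf2 cKO libraries, and the genotypes overlapped. A difference in Cyp2d11 was not detectable at this depth.

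Cyp2d12 went the other way from the tested members, on very few reads. It had 3, 8, 1 and 6 counts in the WT libraries and 0, 0, 1 and 0 in the Taf2 cKO libraries, 18 against 1 in sum. Corrected for library size the WT sum was 18.8 times the knockout sum, with an exact 95% interval from 2.97 to 783 that covers counting error only. WT replicate 3 and knockout replicate 3 had a single count each. Cyp2d12 was below the filter and entered no test in the fit used here. With no filter it was lower in the knockout (-3.68 on the log2 scale, SE 0.98; edgeR adjusted p = 0.00141), the sole one of the 9 called lower.

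Reads are shared among these copies, and that limits the split of counts between them. Transcripts in the GENCODE annotation of the same build were found for 8 members. Aligned to each other, Cyp2d10 and Cyp2d11 were identical at 94.2% of aligned bases, Cyp2d9 and Cyp2d11 at 93.4%, and Cyp2d9 and Cyp2d10 at 91.6%, whereas Cyp2d22 was at most 78.7% identical to any other member. Of all 50-base stretches, 37.1% of those of Cyp2d10 and 27.8% of those of Cyp2d9 also occurred in another member, against 10.5% for Cyp2d26 and 6.14% for Cyp2d22. The estimated counts of Cyp2d9, Cyp2d10, Cyp2d11, Cyp2d13 and Cyp2d22 were not whole numbers in any of the 8 libraries, and those of Cyp2d26 and Cyp2d40 in 7 of them. The few counts of Cyp2d11 and Cyp2d12 are uncertain for this reason as well, since 26.9% of the stretches of Cyp2d11 occur in Cyp2d10 and 11.1% of those of Cyp2d12 in Cyp2d9.

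The sum over the family does not depend on how reads were split within it. The 9 genes together held 710 ± 22.1 CPM in WT, between 690 and 741, and 1072 ± 47.5 CPM in Taf2 cKO, between 1016 and 1118 (SD, n = 4 each), 1.51 times as much. Cyp2d10 made up 45.3 ± 0.487% of the family in WT and 43.7 ± 0.881% in Taf2 cKO, Cyp2d26 21.8 ± 0.123% and 21.9 ± 0.860%, and Cyp2d9 23.7 ± 0.560% and 27.0 ± 0.231%. The share of Cyp2d22 was 6.68 ± 0.265% in WT and 4.90 ± 0.0878% in Taf2 cKO.

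Ratios between members in the same library do not depend on the scaling between libraries. Taken over Cyp2d10, 5 ratios were compared. Cyp2d22 fell from 0.141 to 0.153 of the Cyp2d10 level in the WT libraries to 0.110 to 0.115 in the Taf2 cKO libraries, and Cyp2d9 went from 0.498 to 0.537 up to 0.604 to 0.628. In both cases the genotypes did not overlap, with a two-sided exact permutation p = 0.0286, the smallest that 4 against 4 allows, and 0.0714 when adjusted over the 5 ratios by the Benjamini-Hochberg method, which does not pass. The ratios of Cyp2d26 (exact permutation p = 0.229), Cyp2d40 (0.714) and Cyp2d13 (0.0857) to Cyp2d10 overlapped between the genotypes, and 4 libraries a genotype do not show that these ratios are equal.

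Per kilobase of transcript the order of the levels in WT was Cyp2d10, Cyp2d9, Cyp2d26, Cyp2d22 and Cyp2d40, at 195, 98.3, 91.0, 17.1 and 12.5 CPM per kb. The transcript lengths used were 1648, 1712, 1700, 2769 and 1163 bases in that order. The closeness of Cyp2d22 and Cyp2d40 per kilobase thus depends on the lengths taken, and in CPM they stood at 47.4 and 14.6 in WT and 52.5 and 20.7 in Taf2 cKO. The ranges of Cyp2d9 (93.7 to 103) and Cyp2d26 (88.3 to 95.7) overlapped in WT, but within each WT library Cyp2d9 was the higher. In Taf2 cKO the order was the same, at 284, 169, 138, 19.0 and 17.8 CPM per kb. There the ranges of Cyp2d9 and Cyp2d26 did not overlap (161 to 176 against 128 to 148). Those of Cyp2d22 (18 to 19.9) and Cyp2d40 (14.9 to 19.7) did, and Cyp2d40 was the higher only in replicate 3, at 19.7 against 19.0. Cyp2d13 has no transcript length in this annotation under its symbol and is not placed.

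The abundant members varied together among libraries of a genotype, and Cyp2d13 and, with most members, Cyp2d40 did so weakly or not at all. Around the genotype means, Pearson's r over the 8 libraries was 0.79 between Cyp2d9 and Cyp2d26, 0.77 between Cyp2d9 and Cyp2d10, and 0.66 between Cyp2d10 and Cyp2d26. Cyp2d40 gave 0.65 with Cyp2d26 and between 0.00 and 0.27 with the others, and Cyp2d13 gave between -0.20 with Cyp2d22 and 0.27 with Cyp2d26. These values describe libraries that share depth, scaling and reads between copies. Over all 8 libraries, genotype difference included, the 5 genes most like Cyp2d10 among 9453 others with a mean of at least 5 CPM were Mtss1 (r = 0.9986), Chdh, which encodes choline dehydrogenase (0.9982), the class I gene H2-T23 (0.9978), F13b, which encodes a coagulation factor subunit (0.9978), and the carboxylesterase gene Ces1c (0.9972). In that order Cyp2d9 was 53rd, Cyp2d26 288th, Cyp2d40 1633rd (r = 0.8903) and Cyp2d22 1709th (r = 0.8819).

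Genes beside the cluster were called in both directions. Within 250 kb of it, 7 other genes were tested, of which 2 were higher, 4 lower and 1 not called, with a median log2 fold change of -0.18. None of the 7 had every knockout library above every WT library. The nearest tested gene on the Cyp2d22 side, Ndufa6, which encodes a subunit of mitochondrial complex I, had a log2 fold change of 0.17 (SE 0.042; edgeR adjusted p = 0.00162), close to that of its neighbour Cyp2d22 at 0.15. At the other end Tcf20 was lower at -0.29 (SE 0.047; adjusted p = 2.57e-05), beside Cyp2d26 at 0.61. Srebf2, which encodes a regulator of cholesterol synthesis genes, was lower at -0.25. On chromosome 15 as a whole, 34.4% of 459 tested genes were higher, with a median of 0.0014.

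**Figure D2:**
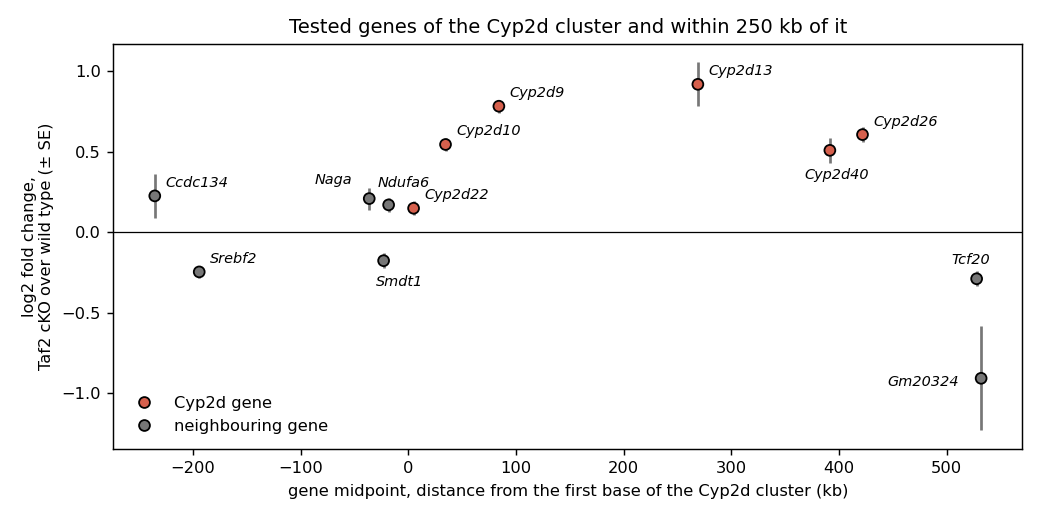
Log2 fold change (Taf2 cKO over wild type, ± SE, vertical axis) of the tested Cyp2d genes (red) and of tested genes within 250 kb of them (grey), against the distance of each gene's midpoint from the first base of the cluster in kb. All 6 Cyp2d genes lie above 0, from 0.15 at Cyp2d22 to 0.92 at Cyp2d13, and the 7 neighbours lie on both sides of 0, from -0.91 to 0.23.

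The rise of the Cyp2d genes stood beside a lower sum of P450 transcripts. The 104 entries named by the usual P450 pattern (Cyp, a number, letters, a number), 5 of them pseudogenes or antisense RNAs, summed to 9154 ± 255 CPM in WT and 7792 ± 99.5 CPM in Taf2 cKO. That pattern leaves out Cyp51, which encodes a sterol demethylase and stood at 442 ± 7.62 and 294 ± 23.9 CPM. With it the sums were 9596 ± 255 and 8086 ± 119 CPM. Of the total without Cyp51, the Cyp2d genes took 7.75 ± 0.142% in WT and 13.8 ± 0.638% in Taf2 cKO, with ranges from 7.58% to 7.91% and from 13.2% to 14.3%. Cyp3a11, the most abundant P450 gene here and a major drug-metabolising enzyme, stood at 4317 ± 143 and 2913 ± 113 CPM. Without Cyp3a11 the total was 4837 ± 149 CPM in WT and 4879 ± 122 CPM in Taf2 cKO. That total still includes the Cyp2d rise, and the Cyp2d share of it was 14.7 ± 0.103% and 22.0 ± 0.573%. Without the Cyp2d genes, and with Cyp3a11, the total was 8444 ± 237 and 6719 ± 111 CPM.

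**Figure D3:**
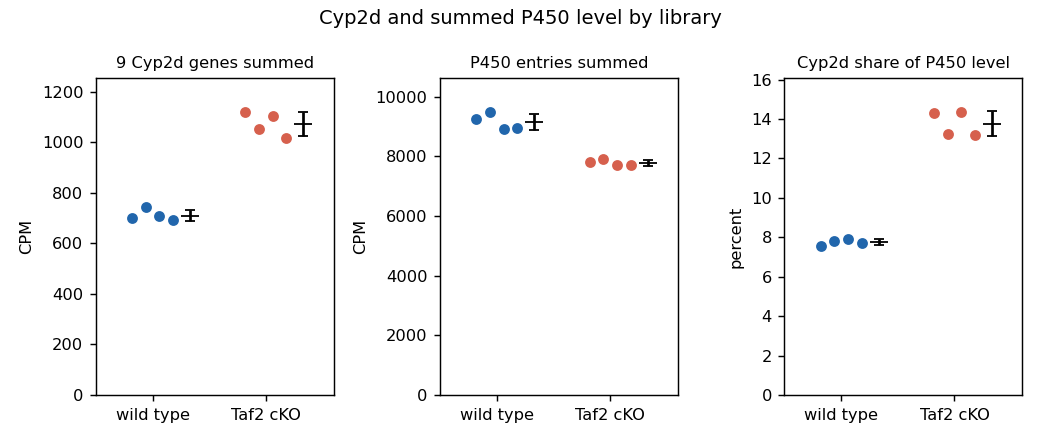
Summed level of the 9 Cyp2d genes (left, CPM), of the 104 P450 entries (middle, CPM) and the Cyp2d share of the P450 level (right, percent), 1 point per library with the mean ± SD in black. The Cyp2d sum is higher in every knockout library (1016 to 1118 against 690 to 741 CPM) while the P450 sum is lower (7706 to 7919 against 8932 to 9476 CPM).

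Other P450 subfamilies gave a mixed picture. Among the 53 other P450 genes of this pattern tested, 24 were higher, 24 lower and 5 not called, with a median log2 fold change of -0.023 against 0.58 for the 6 Cyp2d genes. In the Cyp2c subfamily 4 of 13 tested genes were higher and 9 lower (median -0.53), with Cyp2c29 lower at -0.86 (SE 0.033) and Cyp2c44 higher at 1.56 (SE 0.055). In Cyp3a 2 of 4 were higher and 2 lower (median -0.19). In Cyp4f 3 of 5 were higher, 0 lower and 2 not called (median 0.65). All 3 tested Cyp2a genes were lower, among them Cyp2a5, which encodes a coumarin hydroxylase, at -1.31 (SE 0.037), and Cyp2b10, the classical target of the receptor CAR, was lower at -2.30 (SE 0.079). Cyp2e1, which encodes the ethanol-oxidising P450, and Cyp2f2, at 0.88 (SE 0.047) and 0.61 (SE 0.038), rose as well. The largest edgeR adjusted p among the genes named in this paragraph was that of Cyp2f2, 3.28e-11. The difference between subfamilies was not tested.

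**Figure D4:**
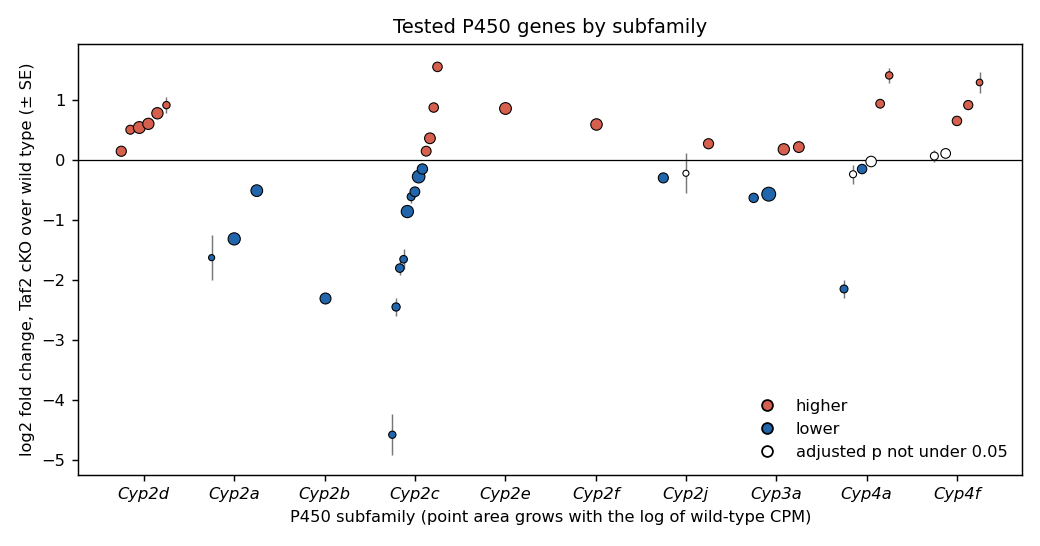
Log2 fold change (Taf2 cKO over wild type, ± SE, vertical axis) of every tested gene in 10 P450 subfamilies (horizontal axis), red for higher, blue for lower, white for an adjusted p not under 0.05. The 6 Cyp2d genes are all above 0, the 3 Cyp2a genes and Cyp2b10 are below it, and Cyp2c genes lie on both sides, from -4.58 to 1.56.

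Among the 102 P450 genes with a transcript length, the level per kilobase placed Cyp2d10 at rank 5 in WT and 4 in Taf2 cKO, Cyp2d9 at 9 and 6, and Cyp2d26 at 10 and 8. Cyp2d22 was at rank 24 in both genotypes, with the length of 2769 bases used for it. Cyp2c29 and Cyp2a5, above Cyp2d10 in WT at ranks 3 and 4, stood at 7 and 10 in Taf2 cKO.

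Of the 9 genes of the electron transfer list, 3 were higher, 2 lower and 4 not called. Por, the reductase that every Cyp2d enzyme needs, rose from 617 ± 9.17 to 926 ± 63.7 CPM (log2 fold change 0.59, SE 0.042; edgeR adjusted p = 2.15e-10), a change of about the size seen in Cyp2d26. Cyb5b and the b5 reductase gene Cyb5r3 went the other way, from 326 ± 6.13 to 226 ± 10 CPM and from 460 ± 15.8 to 310 ± 15.8 CPM. Cyb5a, the microsomal cytochrome b5, was at 436 ± 18.7 and 449 ± 19.9 CPM (adjusted p = 0.369).

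Liver transcription factors were called in both directions, with 5 of 17 tested higher, 9 lower and 3 not called (median log2 fold change -0.17). Hnf4a, whose product binds repeats of the kind printed above, was at 356 ± 8.02 CPM in WT and 366 ± 1.86 CPM in Taf2 cKO (log2 fold change 0.043, SE 0.033; edgeR adjusted p = 0.268). Cebpb rose from 88.4 ± 4.81 to 141 ± 7.54 CPM and Onecut2 from 96.8 ± 6.52 to 135 ± 4.19 CPM, and Nr1h4, which encodes the bile acid receptor FXR, fell from 42.6 ± 1.23 to 18.2 ± 1.20 CPM. Nr0b2, which encodes SHP, known as a repressor of HNF4A activity and named here for that role, was at 0.195 ± 0.128 and 0.303 ± 0.175 CPM, too low to be tested.

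Cyp2d9 in male liver is known to depend on pulsatile growth hormone acting through STAT5B, so genes of that axis and other sex-biased genes were read beside it. In the growth hormone list 4 of 10 tested genes were higher, 2 lower and 4 not called (median -0.012). The feedback gene Cish rose from 11.7 ± 0.508 to 18.1 ± 0.978 CPM and the repressor gene Bcl6 from 15.4 ± 0.596 to 26.8 ± 0.680 CPM, while Stat5b was at 49.1 ± 2.16 and 49.0 ± 1.34 CPM (adjusted p = 0.989). Ghr and Igf1 were also higher, at 0.21 (SE 0.038) and 0.13 (SE 0.039) on the log2 scale. The 2 lower genes were Socs2 at -0.22 (SE 0.057) and Igfals at -0.17 (SE 0.065). Of 20 male-biased genes tested 7 were higher and 10 lower (median -0.064). The 3 with the smallest adjusted p were all lower, Moxd1 at -4.38 (SE 0.12), the major urinary protein gene Mup1 at -1.51 (SE 0.056) and the oxysterol hydroxylase gene Cyp7b1 at -1.17 (SE 0.058). The urinary protein genes went both ways, with Mup20, the most abundant of the list by its mean over all 8 libraries, higher at 0.67 (SE 0.041) and Mup7 lower at -0.88 (SE 0.044). Of 8 female-biased genes tested 2 were higher and 6 lower (median -1.94). Genes of both lists include gene families with near-identical copies. The Y-linked genes Ddx3y, Kdm5d, Eif2s3y and Uty were counted in every library, Ddx3y at 80.3 to 90.7 CPM in WT and 83.4 to 91.3 CPM in Taf2 cKO, and Xist stood between 0 and 0.150 CPM.

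Markers of hepatocytes and of other liver cells also differed between the genotypes. Of 12 hepatocyte markers 9 were higher and 3 lower, with a median log2 fold change of 0.41. Alb rose by 0.54 (SE 0.044; edgeR adjusted p = 2.08e-09), as much as Cyp2d10, while Apoa1, Apob and Cps1 were lower, at -0.29 (SE 0.032), -0.75 (SE 0.064) and -0.65 (SE 0.047). The Cyp2d sum was 1.80% to 1.91% of the Alb level in WT and 1.77% to 2.10% in Taf2 cKO, overlapping ranges with a ratio of means of 1.04 in place of 1.51. Against the sum of the 12 markers it was 1.30% to 1.35% and 1.44% to 1.67%, with a ratio of means of 1.18, and Alb made up 71.2% of that sum in WT and 80.5% in Taf2 cKO. Against the 11 markers other than Alb the Cyp2d sum was 4.47% to 4.73% in WT and 7.74% to 8.28% in Taf2 cKO, a ratio of means of 1.74. The most abundant of these 11 were Apob and Apoa1, both lower in the knockout. They stood at 5694 ± 574 and 4588 ± 58.8 CPM in WT and at 3397 ± 322 and 3756 ± 62.8 CPM in Taf2 cKO, so this ratio rests largely on them. The size of the rise relative to hepatocyte genes thus differed with the genes it was set against. Cyp2d9 alone was 0.413% to 0.464% of Alb in WT and 0.480% to 0.560% in Taf2 cKO, while Cyp2d10 was 0.828% to 0.863% and 0.795% to 0.913%. In bulk samples fewer cells of a type and less RNA per cell cannot be told apart.

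Markers of macrophages were higher in 12 of 12 cases, with a summed level of 88.1 to 117 CPM in WT and 237 to 267 CPM in Taf2 cKO. Most of both sums was Cd68, at a mean of 84.1 CPM in WT and 172 CPM in Taf2 cKO. The other 11 markers were under 5 CPM in WT. Cd68 had the smallest log2 fold change of the 12, 1.04, against a median of 2.32 and a highest value of 2.83 for C1qa. Endothelial markers were higher in 9 of 10 tested cases (67.3 to 75 and 168 to 178 CPM). Stellate cell markers were higher in 9 of 12 cases, with 2 lower and a median log2 fold change of 1.47. Their summed level was 226 to 244 CPM in WT and 213 to 227 CPM in Taf2 cKO. Most of the WT sum was Tagln, 1 of the 2 lower markers, which fell from 139 ± 9.57 to 27.6 ± 1.01 CPM. Of 5 cholangiocyte markers tested 2 were higher and 3 lower (124 to 138 and 157 to 186 CPM). No marker of these 4 lists was at 0 in all 8 libraries, and the cholangiocyte marker Cftr was at 0 in the 4 WT libraries. The part of these cells in the Cyp2d result was not tested.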

How the data were processed

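Total RNA of plated hepatocytes was sequenced on an Illumina HiSeq3000, per the labels' protocols. The authors deposited expected counts per gene, and the submitters' processing notes name RSEM and mm10. The sources used here give no RSEM version, aligner or strand setting, so reads of overlapping antisense genes may be counted together. RSEM divides reads that match several genes, and 2.85% of values were not whole (tolerance 0.005). Columns were matched to samples by library name, and 8 columns that match no sample were not used.

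Expected counts were rounded, filtered with filterByExpr (minimum count 10, minimum total 15), scaled by TMM and compared with edgeR 4.0.16 (R 4.3.3, limma 3.58.1, DESeq2 1.42.0), with genotype as the sole term and Benjamini-Hochberg adjustment over 12122 genes (threshold 0.05). Each SE was taken as |log2 fold change| over the root of edgeR's F. The fit was tested on simulated data in which far fewer genes were changed than were called here. That run does not check scaling or false calls where so many genes differ. Same-genotype libraries differed beyond counting error (chi-square per degree of freedom 3.18 to 8.64), and each was counted as 1 replicate. That spread does not show whether they are biological replicates. The biological coefficient of variation, the variation between replicates beyond counting error, was 4.57%. Correlations between libraries of a genotype ran from 0.9936 to 0.9954. Lengths come from GENCODE M21 transcripts paired with the table's RefSeq identifiers (12016 tested genes), and promoter sequences and gene positions from RefSeq (GRCm38.p6). Intervals for counts are exact (95%).

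The members and gene lists were chosen with earlier results of these data known. The rule for naming genes took Taf2, the 9 members, up to 3 called genes with the smallest adjusted p and the most abundant gene of each list, sex-linked genes, and the 5 genes most like Cyp2d10. Not every gene that the rule took is described above, and those left out include Tat, Tdo2, Ttr, Pecam1, Cdh5, Dcn, Rgs5 and Adgrg2. Genes outside the rule (Nr0b2, Cyb5a and Stat5b for their known roles, Cyp51, Mup7, Apoa1, Apob, Cps1, Socs2, Igfals, Krt19 and a few neighbours) were named after their values were seen. Alternatives were RLE, upper-quartile and total-count scaling, DESeq2, limma-voom, no filter, a filter of 50 counts in 4 libraries, unrounded counts, a replicate block and leaving out each library.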

Additional observations from a re-analysis of the deposited data

Results flagged for a closer look

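Among 20 sets of 4 libraries (each Cyp2d gene with counts, their sum and Taf2, in each genotype), 2 held a library far from the other 3 by Dixon's criterion, and chance flags about 1 such set in 20. Cyp2d11 stood at 0.328 CPM in WT replicate 4 against 0.0972 to 0.130 CPM in the other WT libraries, a matter of 7 counts. Cyp2d12 stood at 0.0432 CPM in Taf2 cKO replicate 3, on 1 count, against 0 in the other knockout libraries. No tested Cyp2d gene had such a library.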

How the results depend on the processing

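All 6 tested Cyp2d genes were higher in the knockout under each of the 17 alternatives to the edgeR fit, and no member was lower by edgeR, DESeq2 or limma-voom, with the exception that 1 member, Cyp2d12, was lower with no low-count filter, which admits genes with so few counts. Log2 fold changes ranged from 0.75 to 0.81 for Cyp2d9, 0.52 to 0.58 for Cyp2d10, 0.58 to 0.65 for Cyp2d26, 0.46 to 0.59 for Cyp2d40, 0.84 to 1.02 for Cyp2d13 and 0.12 to 0.18 for Cyp2d22. Cyp2d22 came nearest to the threshold, at an edgeR adjusted p = 0.0294 without WT replicate 3, in a range from 0.00154. Replicate numbers are shared between the genotypes as numbers only (correlations of same-numbered libraries from -0.069 to 0.011), and with the replicate block 3666 genes were higher and 3771 lower, against 3663 and 3784, with all 6 tested Cyp2d genes called. The median log2 fold change of all genes lay between -0.031 and 0.020 over the alternatives. Relative to Alb, a denominator chosen like the next ones after seeing the data, the log2 ratio of the Cyp2d sum was 0.061, relative to 12 hepatocyte markers 0.24 and relative to the 11 without Alb 0.80, against 0.60 in CPM. Depth limits Cyp2d11, Cyp2d12 and Cyp2d34.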

Other observations

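The promoter pattern of the Cyp2d genes could be read over all genes. Of 9283 tested genes with a RefSeq promoter window, 30.0% were higher and 31.1% lower in Taf2 cKO, with a median log2 fold change of -0.0053. Of the 257 among them with a TATAA whose first letter lies 40 to 20 bases before the start, 45.9% were higher and 29.2% lower, with a median of 0.12. The 3 tested Cyp2d genes in this group are Cyp2d9, Cyp2d10 and Cyp2d26. The group was formed after the Cyp2d windows had been read and was not tested.

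The table also holds Cyp2d37-ps, a transcribed pseudogene of the same cluster outside the set of 9. It had 6, 2, 1 and 1 counts in the WT libraries and 14, 7, 12 and 4 in the Taf2 cKO libraries, too few for the filter, and the genotypes overlapped.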
